A study of Homo sapiens with 27 samples.

Results

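A431 cells treated with Compound Kushen Injection (CKI) were compared with A431 cells that received the vehicle control (VC), with 3 RNA-seq libraries in each group. These are 6 of the 27 libraries of the series, and they were chosen by their labels, not by any measured value. A431 is a human cell line established from an epidermoid carcinoma of the skin, and it is known for its high level of the EGF receptor. CKI is an injection prepared from the medicinal roots Kushen and Baituling, and here it was given at 1 mg/ml, a dilution of 1 in 20, for 48 h. The VC cells were collected at the same time, and their labels do not name the composition of the vehicle. The comparison asks which transcripts moved with CKI beyond what the vehicle alone did.

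A further 3 untreated A431 libraries, also from 48 h, show where the VC and CKI levels lay in relation to cells without any addition. They share no library with the CKI and VC groups. Since the VC libraries enter both VC against untreated and CKI against VC, and the CKI libraries enter both comparisons that name CKI, these are not independent of one another. Values from 12 other libraries are given beside them, all from 48 h. These were A431 cells with doxorubicin (Dox), A431 cells with doxorubicin plus CKI at 1 mg/ml (CKI_Dox), untreated MDA-MB-231 cells and MDA-MB-231 cells with CKI at 1 mg/ml, 3 libraries each. The labels do not assign a dose of doxorubicin to the Dox and CKI_Dox libraries. MDA-MB-231 is an established line from a human breast adenocarcinoma. Nothing in the labels says that replicates came from separate cultures, so p-values measure only the spread between these samples, which may be technical.

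Several well-known programs are relevant to a plant extract given to an epithelial tumor line. The aryl hydrocarbon receptor (AHR) is a ligand-activated transcription factor that binds planar aromatic compounds and switches on cytochrome P450 genes of the CYP1 family. NRF2 induces detoxifying and antioxidant enzymes, SREBP factors induce sterol and fatty acid enzymes when membrane sterols are low, and E2F factors with the CHR-binding DREAM and MuvB complexes time the expression of replication and mitosis genes. NF-kappa-B and the immediate early factors of the FOS, EGR and ATF families carry the inflammatory and stress response of keratinocytes, which includes interleukin-1, chemokines that draw neutrophils, and inhibitors such as A20 that end the response.

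Total counts per library were 19528840 to 21105289 in the CKI group and 18837170 to 21756536 in the VC group. Levels are given as CPM (read counts scaled to library size with TMM factors). Without TMM factors, 3 counts correspond to 0.138 to 0.159 on this scale in the VC libraries. The TMM factors of the VC libraries were 0.89 to 0.901, so 3 counts correspond to somewhat more in the CPM values given here. The VC libraries differed among themselves more than the CKI libraries did. A chi-square statistic of the counts per degree of freedom was 9.98 to 28.5 between VC replicates and 2.01 to 3.52 between CKI replicates. VC replicates 1 and 3 were farthest apart, and their difference per gene followed GC content with a Spearman's rho of -0.59 across genes. The counts of called genes, of list members called in CKI against VC and of inflammatory genes that reversed were therefore also computed without each of these libraries. List counts in the other comparisons, the count of ribosomal protein genes and the counts of overlap between groups were not. The squamous label of the line was borne out by its markers, which summed to 11210 to 12270 CPM in VC and 13270 to 13980 CPM in CKI over 14 genes, with none of the 14 called. Of 7 mesenchymal markers, CAV1 made up most of the sum, and the list summed to 1931 to 2117 CPM in VC and 1441 to 1466 CPM in CKI, while VIM was at 6.54, 6.79 and 5.76 CPM in VC and 2.28, 3.22 and 2.75 CPM in CKI. Of 9 leukocyte and fibroblast markers, PTPRC had no count in either group, and the summed level was 14.2 to 21.9 CPM in VC and 46 to 49.3 CPM in CKI, nearly all of it COL1A1. The part of these markers in the results was not tested.

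A gene is termed called where edgeR's quasi-likelihood test gave a Benjamini-Hochberg adjusted p under 0.05 and the log2 fold change exceeded 1 in size, and rose or fell is written only of called genes. In CKI against VC, 3100 of 15881 genes tested were called (19.5%), of which 1795 rose (11.3%) and 1305 fell (8.22%). In VC against untreated, 404 of the same genes were called (2.54%), with 166 higher (1.05%) and 238 lower (1.5%). The split by direction depended on the scaling, since with offsets for GC content and length 151 genes were called higher and 92 lower, which moved the higher share from 41.1% to 62.1%. All 3 CKI libraries lay above all 3 VC libraries in 5144 genes and below them in 5258, while the groups overlapped in 5479. Of the called genes, 87 had groups that overlapped. The median log2 fold change over all genes was 0.00, with quartiles of -0.48 and 0.55. GC content was only weakly related to CKI against VC (Spearman's rho 0.16 across genes) and more strongly to VC against untreated (rho -0.58). As the RNA came from bulk cultures, fewer cells in a state and less transcript per cell cannot be told apart.

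**Figure D1:**
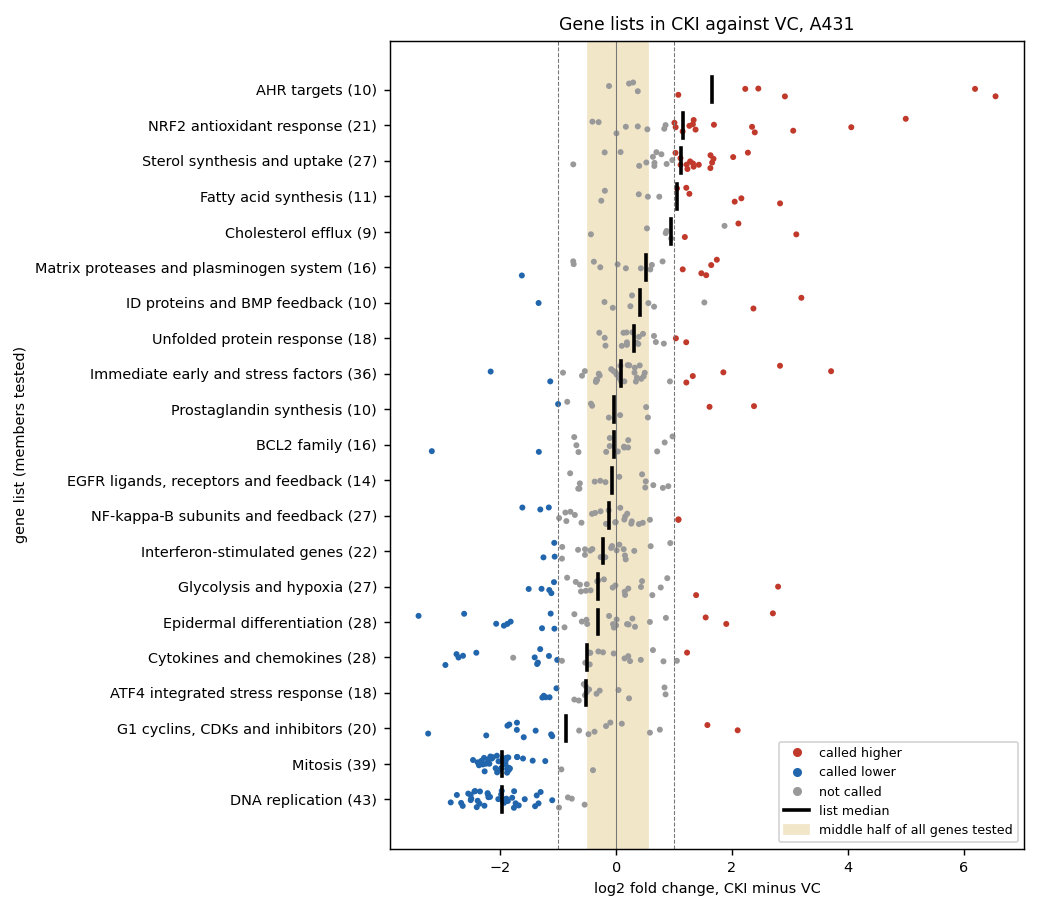
Each point is a tested member of a gene list (rows, number tested in parentheses) at its log2 fold change in CKI against VC, in red where called higher, blue where called lower and grey otherwise, with the list median as a black bar, the fold threshold as dashed lines and the quartiles of all genes (-0.48 to 0.55) as a band. AHR, antioxidant and sterol lists lie to the right (medians 1.65, 1.15 and 1.11), mitosis and replication farthest to the left (both -1.98), and cytokines at -0.50.

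AHR target genes held the largest single increase among called genes that reached 10 CPM in CKI and did not overlap VC. Of 10 members, 6 rose and none fell, with a median log2 fold change of 1.65 in CKI against VC. CYP1A1, which hydroxylates polycyclic aromatic compounds (chromosome 15 from 75011883 to 75017877, reverse strand, of GRCh37), was at 3.54, 5.11 and 4.82 CPM in the VC libraries and at 413, 418 and 437 CPM in the CKI libraries. The untreated libraries, at 4, 3.42 and 4.23 CPM, overlapped VC, and every CKI library stood far above both. The log2 fold change against VC was 6.55 (standard error 0.09, edgeR adjusted p = 1.3e-23). CYP1B1, its relative with extrahepatic expression, went from 14.8, 15.8 and 12.5 CPM to 79, 77.3 and 79.8 CPM, a log2 fold change of 2.45 (standard error 0.07, edgeR adjusted p = 1.0e-17). The AHR repressor AHRR, a feedback inhibitor of the receptor, was low in VC at 0.589, 0.46 and 0.664 CPM and rose to 4.55, 4.71 and 3.65 CPM (log2 fold change 2.91 with a standard error of 0.22, edgeR adjusted p = 6.4e-11). No CKI library overlapped a VC library in these 3 genes.

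Other members of the AHR battery behaved less uniformly. The aldehyde dehydrogenase ALDH3A1 was lowered with the vehicle and raised with CKI, at 51.1, 50.1 and 50.2 CPM untreated, 19.9, 24.3 and 24.1 CPM in VC and 102, 109 and 109 CPM in CKI. It changed by -1.15 (standard error 0.08, edgeR adjusted p = 9.0e-11) in VC against untreated and by 2.23 (standard error 0.07, edgeR adjusted p = 3.6e-17) in CKI against VC. The efflux transporter ABCG2 went from 31.8, 27.9 and 25 CPM to 60.2, 58.5 and 59.3 CPM, and its log2 fold change of 1.07 (standard error 0.07, edgeR adjusted p = 7.1e-12) passed the threshold narrowly and was 0.99 without VC replicate 3. CYP1A2 had no count in any VC library and 8, 13 and 7 counts in the CKI libraries, so its fold change can only be bounded. The CKI mean was 2.94-fold above 3 counts in the shallowest VC library. That floor was not scaled with TMM factors and the CKI mean was, so a bound on the CPM scale is lower. With this gene at 2.94-fold the median of the list was 1.31 in place of 1.65, and it is lower still at the smaller bound. CYP1A1 and CYP1A2 are neighbouring copies whose reads could be shared. Not called were the receptor itself (log2 fold change 0.29 on the log2 scale), its partner ARNT (log2 fold change 0.22), TIPARP (log2 fold change -0.12) and NQO1 (log2 fold change 0.37).

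The promoter of CYP1A1 is shown because this gene had the largest increase among called genes with at least 10 CPM in CKI and no overlap with VC. It covers the 250 bases before the start site (chr15:74725529-74725778, reverse strand, GRCh38.p14, from RefSeq, printed 5′ to 3′ in the direction of transcription), and the capitals mark the core recognised by AHR, GCGTG, searched on both strands.
CYP1A1: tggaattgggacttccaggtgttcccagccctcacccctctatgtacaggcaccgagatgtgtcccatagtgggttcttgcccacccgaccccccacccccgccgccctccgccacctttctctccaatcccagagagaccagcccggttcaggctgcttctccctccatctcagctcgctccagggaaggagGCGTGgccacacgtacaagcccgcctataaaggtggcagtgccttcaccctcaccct
The core occurs once in this window. It is a common word, held by 5401 of 12559 promoters of tested genes (43%) and by 3 of the 8 AHR targets with a promoter in the table (37.5%), so its presence does not set these genes apart. All promoters printed here are of GRCh38.p14, while the reads were counted on hg19, and only the letters were taken from them.

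NRF2 target genes rose with a median log2 fold change of 1.15, and 13 of 21 were called, all higher in CKI. The number called was 11 without CKI replicate 2. It was 12 with no filter and without CKI replicate 3, VC replicate 1 or VC replicate 3. The largest changes were in aldo-keto reductases, which reduce steroids, prostaglandins and reactive aldehydes. AKR1B10 went from 1.06, 0.766 and 0.553 CPM in VC to 24.1, 23.9 and 28.2 CPM in CKI, a log2 fold change of 5.00 (standard error 0.16, edgeR adjusted p = 1.7e-17). AKR1C3 went from 9.25, 8.32 and 8.58 CPM to 150.4, 139 and 146 CPM, a log2 fold change of 4.06 (standard error 0.08, edgeR adjusted p = 1.2e-20). In both, the VC libraries lay below the untreated libraries and the CKI libraries lay far above. AKR1C1 (log2 fold change 3.05) and AKR1C2 (log2 fold change 2.39) also rose, but the AKR1C genes are near-identical copies and reads may be split among them. HMOX1, which opens the heme ring and releases iron, carbon monoxide and biliverdin, was at 19.2, 19 and 22.1 CPM in VC and 95.6, 105 and 106 CPM in CKI, with a log2 fold change of 2.34 (standard error 0.07, edgeR adjusted p = 1.1e-17).

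Further members served redox and iron storage. On the log2 scale, PGD of the pentose phosphate pathway rose by 1.15, thioredoxin reductase TXNRD1 by 1.37, malic enzyme ME1 by 1.26, and the ferritin light and heavy chains FTL and FTH1 by 1.34 and 1.00. The change was not general. GCLC, the catalytic subunit of glutamate-cysteine ligase, had a log2 fold change of -0.41 with every CKI library below every VC library, and its modifier subunit GCLM had 0.83. NFE2L2, which encodes NRF2, was at 0.00, and its repressor KEAP1 at -0.30. In VC against untreated, none of the 21 was called, and the median was -0.10.

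Genes of sterol synthesis and uptake rose on top of a smaller shift already seen in VC against untreated. In CKI against VC, 15 of 27 rose and none fell, with a median of 1.11. In VC against untreated, 1 rose and the median was 0.43. MSMO1, a sterol C4 demethylase, was at 146, 150.0 and 163 CPM untreated, 302, 276 and 253 CPM in VC and 1149, 1082 and 1138 CPM in CKI, so the 3 groups formed 3 separate steps. Its log2 fold change was 0.86 in VC against untreated and 2.02 (standard error 0.07, edgeR adjusted p = 2.4e-17) in CKI against VC. INSIG1, the sterol sensor that retains SCAP in the endoplasmic reticulum, followed the same order at 124, 129 and 136 CPM, 249.8, 246 and 219.9 CPM and 728, 736 and 745 CPM, with 1.63 (standard error 0.06, edgeR adjusted p = 5.5e-17) for CKI against VC.

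LSS, which closes the sterol ring to form lanosterol, moved mostly with CKI. It was at 82.5, 77.5 and 93.4 CPM untreated, 86.6, 105 and 115 CPM in VC and 492, 505 and 483 CPM in CKI (log2 fold change 2.27 with a standard error of 0.08, edgeR adjusted p = 1.9e-16). HMGCS1, which makes HMG-CoA for the mevalonate pathway, showed the opposite share of steps, at 144, 153 and 163 CPM, 455, 435 and 377 CPM and 669, 654 and 678 CPM in the same order of groups. It was called in VC against untreated (log2 fold change 1.46 with a standard error of 0.06, edgeR adjusted p = 2.9e-14) and not in CKI against VC (log2 fold change 0.66), although no CKI library overlapped a VC library. Within the same list, PMVK of the mevalonate pathway had a log2 fold change of -0.74 in CKI against VC.

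**Figure D2:**
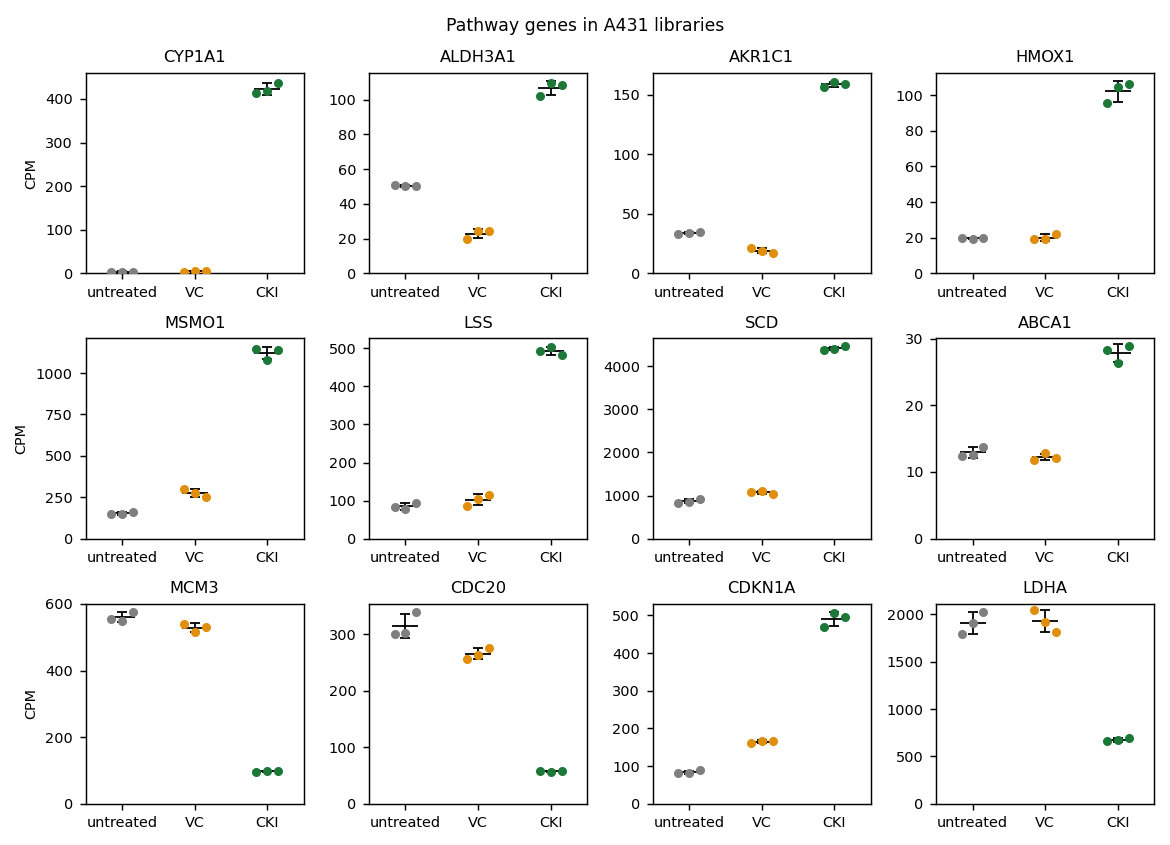
CPM on linear axes from 0 in each untreated, VC and CKI library of A431, 1 panel per gene, with 1 point per library and bars for the mean and SD of the 3 libraries. CYP1A1 is near the axis in untreated and VC and between 413 and 437 CPM in CKI, MSMO1 and CDKN1A climb in steps from untreated through VC to CKI, LSS is high in CKI, and MCM3, CDC20 and LDHA are low in CKI.

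Fatty acid genes rose as well, with 6 of 11 called, all higher, and a median of 1.05. ACSS2, which makes acetyl-CoA from acetate, went from 91.9, 90.9 and 83.1 CPM to 645, 622 and 621 CPM (log2 fold change 2.83 with a standard error of 0.06, edgeR adjusted p = 1.6e-20). SCD, which introduces the double bond of oleate, went from 1089.7, 1097 and 1026 CPM to 4385, 4403 and 4468 CPM (log2 fold change 2.04 with a standard error of 0.05, edgeR adjusted p = 7.7e-19). Both were only slightly above untreated in VC, at 0.31 and 0.31 on the log2 scale. The desaturase FADS2 rose by 2.16, ME1 by 1.26, ATP citrate lyase ACLY by 1.05 and fatty acid synthase FASN by 1.21. FASN spread widely among the VC libraries, at 1389.9, 1992 and 2444 CPM, against 4253, 4701 and 4515 CPM in CKI. With offsets for GC content and length, the list had 4 called and a median of 0.76. ACACA was not analysed here.

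Genes of cholesterol efflux, which liver X receptors induce when sterols are abundant, moved in the same direction, with 3 of 9 called, all higher, and a median of 0.95. ABCG1 was at 1.47, 0.868 and 1.22 CPM in VC and 10.5, 9.53 and 10.5 CPM in CKI (log2 fold change 3.11 with a standard error of 0.19, edgeR adjusted p = 1.5e-12). ABCA1, which loads lipid onto apolipoprotein A-I, was at 11.8, 12.8 and 12.1 CPM and 28.3, 26.4 and 28.9 CPM (log2 fold change 1.18 with a standard error of 0.08, edgeR adjusted p = 3.6e-12). APOE rose by 2.11 (standard error 0.16, edgeR adjusted p = 9.1e-11). The receptors NR1H2 and NR1H3, at 0.85 and 0.95, stayed below the fold threshold, and without VC replicate 3 the list had 5 called.

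DNA replication genes fell almost as a whole. Of 43 members, 39 fell and none rose in CKI against VC, with a median log2 fold change of -1.98, and the 4 others (RFC1, POLD2, RPA1 and RPA3) ranged from -0.99 to -0.55 with every CKI library below every VC library. In VC against untreated, none was called and the median was 0.01. MCM3, a subunit of the replicative helicase (chromosome 6 from 52128812 to 52149679, reverse strand, of GRCh37), was at 555, 550.0 and 577 CPM untreated, 541, 516 and 530.5 CPM in VC and 96.9, 97.2 and 96.9 CPM in CKI. Its log2 fold change against VC was -2.45 (standard error 0.05, edgeR adjusted p = 2.8e-20). The VC libraries sat just below the untreated ones, and the CKI libraries lay in a narrow band far lower.

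CDC45, which joins the MCM ring to form the active helicase, fell further, from 70.3, 73.5 and 76.8 CPM to 9.74, 10.8 and 9.9 CPM (log2 fold change -2.86 with a standard error of 0.08, edgeR adjusted p = 1.3e-18). RRM2, the regulated subunit of ribonucleotide reductase, went from 268, 254 and 230.4 CPM to 43.6, 44 and 44.3 CPM (log2 fold change -2.51 with a standard error of 0.06, edgeR adjusted p = 7.7e-19). The flap endonuclease FEN1 went from 139, 135 and 135 CPM to 30.1, 29.2 and 29.4 CPM (log2 fold change -2.21 with a standard error of 0.06, edgeR adjusted p = 9.3e-19), and the helicase subunit MCM4 had a log2 fold change of -2.27. RFC3, a subunit of the clamp loader, was at -2.75. The groups did not overlap in any of these genes.

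Mitosis genes fell to the same extent, with 37 of 39 lower, none higher and a median of -1.98. The 2 that were not called were BUB3 (log2 fold change -0.95) and the phosphatase CDC25B (log2 fold change -0.40). UBE2C, the ubiquitin-conjugating enzyme of the anaphase-promoting complex, was at 246, 224 and 228 CPM in VC and 44.7, 44.8 and 45.7 CPM in CKI (log2 fold change -2.37 with a standard error of 0.06, edgeR adjusted p = 9.8e-19). CCNB1, the mitotic cyclin, was at 259, 238 and 227 CPM and 52, 50.1 and 50.1 CPM (log2 fold change -2.25 with a standard error of 0.06, edgeR adjusted p = 1.0e-18). The kinesin KIF2C fell (log2 fold change -2.30 with a standard error of 0.06, edgeR adjusted p = 2.3e-18), and CDC20, an activator of the anaphase-promoting complex, went from 256, 263 and 275 CPM to 57.6, 55.6 and 58.3 CPM (log2 fold change -2.21 with a standard error of 0.06, edgeR adjusted p = 2.5e-18). None of the 39 was called in VC against untreated, where the median was 0.16. When any single CKI or VC library was left out, 39 or 40 replication genes and 37 mitosis genes were called lower.

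Promoters of 4 cell cycle genes are shown because their lists moved together and differ in the motif they hold. For MCM3 (chr6:52284743-52284992, reverse strand) and MCM6 (chr2:135876444-135876693, reverse strand), capitals mark the E2F motif TTTNNCGC, and for CDC20 (chr1:43358731-43358980, forward strand) and TOP2A (chr17:40417897-40418146, reverse strand) they mark the cell cycle homology region, CHR, TTTGAA. Each is the 250 bases before the start on GRCh38.p14 from RefSeq, searched on both strands, with overlapping matches joined.
MCM3: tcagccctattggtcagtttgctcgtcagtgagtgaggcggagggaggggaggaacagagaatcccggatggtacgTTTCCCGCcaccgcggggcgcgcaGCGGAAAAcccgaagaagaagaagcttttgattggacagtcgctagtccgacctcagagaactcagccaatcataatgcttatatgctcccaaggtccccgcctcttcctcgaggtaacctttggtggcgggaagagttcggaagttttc
MCM6: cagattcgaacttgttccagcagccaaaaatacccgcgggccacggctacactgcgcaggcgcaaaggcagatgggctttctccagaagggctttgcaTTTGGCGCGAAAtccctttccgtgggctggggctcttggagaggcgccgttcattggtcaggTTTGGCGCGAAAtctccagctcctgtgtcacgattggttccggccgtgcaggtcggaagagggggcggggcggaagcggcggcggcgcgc
CDC20: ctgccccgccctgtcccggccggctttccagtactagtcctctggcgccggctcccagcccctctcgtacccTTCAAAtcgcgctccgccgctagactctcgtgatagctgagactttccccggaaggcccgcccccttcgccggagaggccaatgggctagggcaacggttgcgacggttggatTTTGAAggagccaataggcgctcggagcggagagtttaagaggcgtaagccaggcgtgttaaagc
TOP2A: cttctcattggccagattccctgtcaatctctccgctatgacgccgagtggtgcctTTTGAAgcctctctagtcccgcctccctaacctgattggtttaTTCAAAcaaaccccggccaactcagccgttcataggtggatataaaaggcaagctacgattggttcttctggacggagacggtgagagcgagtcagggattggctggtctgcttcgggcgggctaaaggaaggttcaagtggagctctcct
The E2F motif was in 15 of 36 replication promoters (41.7%), in 2 of 33 mitosis promoters (6.06%) and in 1054 of the 12559 promoters of tested genes (8.39%). The CHR motif was in 16 of 33 mitosis promoters (48.5%), in 1 of 36 replication promoters (2.78%) and in 1138 of all (9.06%). The CCAAT box, CCAAT, was in 24 of the 33 mitosis promoters (72.7%), against 34.5% of all. It was also in 20 of 36 replication promoters (55.6%), 15 of 21 sterol promoters (71.4%) and 16 of 18 unfolded protein response promoters (88.9%). It is therefore not particular to the mitosis list. MCM6 fell (log2 fold change -1.94 with a standard error of 0.07, edgeR adjusted p = 1.6e-16), as did TOP2A, the mitotic topoisomerase (log2 fold change -1.61 with a standard error of 0.06, edgeR adjusted p = 2.7e-16).

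The regulators of the G1 phase moved with a median of -0.87, with 10 of 20 lower and 2 higher. Of all genes, 8.22% fell and 11.3% rose, so the 2 of 20 that rose are near that background. Among the factors that drive S phase genes, E2F1, E2F2 and E2F8 fell, with log2 fold changes of -1.72, -2.24 and -1.85, and so did the kinases CDK4 and CDK2, with -1.39 and -1.12. CCND2, a D-type cyclin, showed one of the largest falls, from 17.3, 12.7 and 14.7 CPM in VC to 1.6, 1.44 and 1.64 CPM in CKI (log2 fold change -3.25 with a standard error of 0.17, edgeR adjusted p = 8.1e-14). CCND1, the D-type cyclin of most epithelial cells, did not pass, at 1436, 1682 and 1605 CPM in VC and 1651, 1724 and 1674 CPM in CKI, a log2 fold change of 0.10 (standard error 0.06, edgeR adjusted p = 0.15) with overlapping groups. CDKN1A, the p21 inhibitor of cyclin-dependent kinases, was at 82.7, 80.9 and 88.5 CPM untreated, 160.4, 166 and 168 CPM in VC and 469, 507 and 495 CPM in CKI, and rose by 1.57 (standard error 0.06, edgeR adjusted p = 1.1e-16) over VC. CDKN1C, the related inhibitor p57, was lowered with the vehicle (log2 fold change -1.10) and rose with CKI (log2 fold change 2.10).

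Many of the inflammatory and immediate early genes were higher in VC than in untreated cells. Whether the vehicle itself or another difference between the groups gave this was not tested. Over 4 lists (cytokines and chemokines, NF-kappa-B subunits and feedback, immediate early and stress factors, prostaglandin synthesis), 38 genes were higher in VC than in untreated cells and 1 was lower. By list, 13 of 28 cytokines, 4 of 27 NF-kappa-B genes, 19 of 36 immediate early genes and 2 of 10 prostaglandin genes were higher, against 1.05% of all genes tested. The largest of these steps was in ATF3, a stress-induced repressor, at 12.2, 10.6 and 14.2 CPM untreated and 501, 426 and 390.1 CPM in VC (log2 fold change 5.16 with a standard error of 0.12, edgeR adjusted p = 3.3e-19). FOSB, a partner of JUN in the AP-1 factor, went from 37.5, 28 and 28.1 CPM to 609, 697 and 747 CPM (log2 fold change 4.46 with a standard error of 0.11, edgeR adjusted p = 2.8e-18). Every VC library was above every untreated library in both genes.

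A change is said here to reverse where a gene called in VC against untreated was called in the opposite direction in CKI against VC. Of the 38 genes raised in VC, 11 reversed (28.9%), 2 rose further and 25 were not called in CKI against VC. Among all 166 genes raised in VC, these 38 included, 40 reversed (24.1%), and of the 238 lowered in VC, 111 reversed (46.6%), so reversal was not limited to raised genes. By list, reversal was found in 8 of 13 cytokines (61.5%), 2 of 4 NF-kappa-B genes (50%), 1 of 19 immediate early genes (5.3%) and none of the 2 prostaglandin genes. The VC libraries enter both comparisons behind this count, so a chance high value in VC would add to it. A chance low value would likewise add to the reversal of lowered genes. With offsets for GC content and length, 92 genes were lowered in VC in place of 238, and their reversal was not recounted. With the adjusted p alone and no fold threshold, 31 of 64 raised genes reversed, so many genes given here as not called were slightly lower in CKI.

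The neutrophil chemokines of the CXCL1 cluster returned to the untreated level or passed below it. CXCL1 (chromosome 4 from 74735110 to 74737025, forward strand, of GRCh37) was at 110.3, 113 and 113 CPM untreated, 276, 257 and 251 CPM in VC and 41.8, 38.1 and 35.9 CPM in CKI. The log2 fold change was 1.22 (standard error 0.06, edgeR adjusted p = 3.0e-13) with the vehicle and -2.76 (standard error 0.06, edgeR adjusted p = 1.5e-19) in CKI against VC. The CKI libraries were the lowest of the 3 groups without overlap, and against untreated cells the gene was also called lower (log2 fold change -1.54 with a standard error of 0.06, edgeR adjusted p = 1.1e-15). CXCL2 was at 13.8, 11 and 12.9 CPM, 76.7, 68.8 and 63.2 CPM and 11.3, 10.2 and 10.1 CPM in the same order of groups, a log2 fold change of -2.72 (standard error 0.09, edgeR adjusted p = 6.2e-17) from VC. CXCL3 was at 5.19, 5.07 and 5.36 CPM, 16.7, 20 and 18.1 CPM and 1.79, 2.88 and 2.44 CPM, a log2 fold change of -2.95 (standard error 0.15, edgeR adjusted p = 3.4e-14). CXCL3 ended below untreated (log2 fold change -1.14 with a standard error of 0.17, edgeR adjusted p = 4.1e-06) and CXCL2 did not pass the threshold against untreated (log2 fold change -0.25). The 3 genes are close copies, and how the counting divided shared reads is not given in the sources used here.

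Other secreted factors also came back to the untreated level. CCL20, which attracts cells bearing CCR6, was at 2.15, 3.31 and 2.97 CPM untreated, 15.3, 11.9 and 11.3 CPM in VC and 2.57, 2.13 and 2.49 CPM in CKI, a log2 fold change of -2.42 (standard error 0.16, edgeR adjusted p = 5.4e-12) from VC. CXCL10, a ligand of CXCR3, was at 1.79, 1.71 and 1.7 CPM, 5.01, 4.54 and 3.71 CPM and 1.21, 1.74 and 2.06 CPM (log2 fold change -1.41 with a standard error of 0.17, edgeR adjusted p = 1.1e-07). TNF was near the limit of the depth throughout, at 0.358, 0.11 and 0.505 CPM, 1.53, 1.58 and 1.27 CPM and 0.872, 0.447 and 0.423 CPM (log2 fold change -1.31 with a standard error of 0.33, edgeR adjusted p = 0.0015), and it was lost from the count when 10 counts were required in every library. In CCL20 and CXCL10 the VC libraries stood alone above overlapping untreated and CKI libraries. DUSP2, a nuclear phosphatase of ERK and the only immediate early gene of the 19 to reverse, had the same shape at 8.47, 7.72 and 7.95 CPM, 32.3, 38.7 and 39.8 CPM and 8.38, 8.58 and 7.68 CPM, a log2 fold change of -2.17 (standard error 0.10, edgeR adjusted p = 6.7e-15) from VC.

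CXCL8, IL1A, TNFAIP3 and NFKBIZ came back only part of the way. CXCL8, interleukin-8, was at 33.5, 34.3 and 41.6 CPM untreated, 412, 366 and 313 CPM in VC and 145, 131 and 148 CPM in CKI. Its log2 fold change from VC was -1.37 (standard error 0.09, edgeR adjusted p = 3.9e-12), and it remained higher than in untreated cells (log2 fold change 1.95 with a standard error of 0.10, edgeR adjusted p = 2.3e-14). IL1A, the interleukin-1 that epithelial cells store and release on damage, was at 179, 193 and 184 CPM, 898, 705 and 649 CPM and 329.9, 339 and 338 CPM, a log2 fold change of -1.16 (standard error 0.08, edgeR adjusted p = 9.8e-12) that became -0.89 with offsets for GC content and length and then was not called. All 3 groups were separate in both genes, with CKI in the middle, but IL1A was not called in CKI against untreated cells.

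TNFAIP3 (chromosome 6 from 138188351 to 138204451, forward strand, of GRCh37) encodes A20, an inhibitor of NF-kappa-B signalling that NF-kappa-B itself induces. It was at 85.7, 84.3 and 78.9 CPM untreated, 862, 853 and 815 CPM in VC and 326, 341 and 353 CPM in CKI, which is a log2 fold change of -1.31 (standard error 0.05, edgeR adjusted p = 5.2e-16) from VC and a remaining difference of 2.03 (standard error 0.05, edgeR adjusted p = 7.3e-19) from untreated. NFKBIZ, a nuclear cofactor needed for secondary response genes, was at 48.2, 44.8 and 44 CPM, 492, 459 and 395 CPM and 171, 218 and 212 CPM (log2 fold change -1.16 with a standard error of 0.08, edgeR adjusted p = 1.7e-11 from VC). NFKBIA, the cytoplasmic inhibitor, moved the same way without reaching the fold threshold, at 166, 170.0 and 173 CPM, 447, 425 and 435 CPM and 238, 236 and 246 CPM, with -0.86 (standard error 0.05, edgeR adjusted p = 3.8e-13) for CKI against VC.

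**Figure D3:**
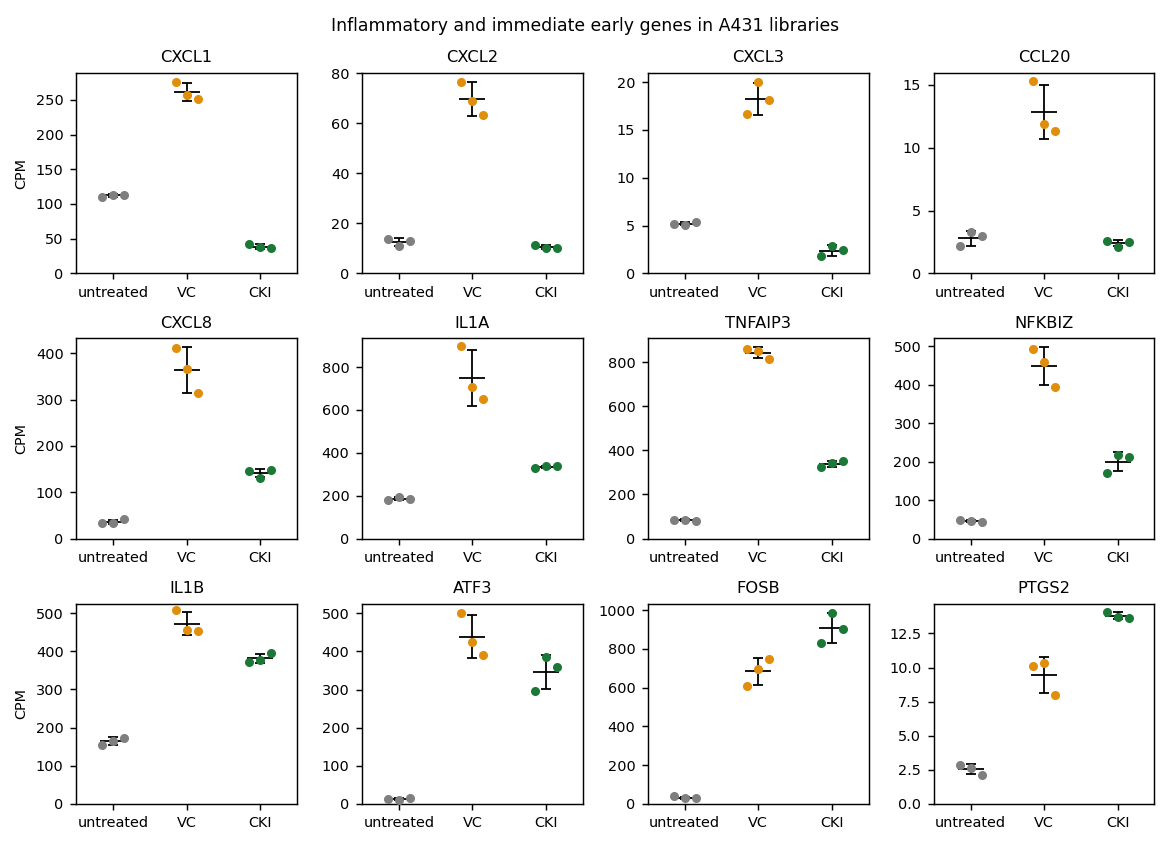
CPM on linear axes from 0 of 12 inflammatory and immediate early genes in each untreated, VC and CKI library of A431, with 1 point per library and bars for the mean and SD of the 3 libraries. The CXCL1, CXCL2, CXCL3 and CCL20 panels peak in VC and return to or below the untreated level in CKI, the second row (CXCL8, IL1A, TNFAIP3, NFKBIZ) returns part of the way, and IL1B, ATF3, FOSB and PTGS2 stay well above untreated in CKI.

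Promoters of 6 genes that reversed are shown because they hold a motif that few others have. Each is the 130 bases before the start on GRCh38.p14 from RefSeq, namely CXCL1 (chr4:73869263-73869392, forward strand), CXCL2 (chr4:74099196-74099325, reverse strand), CXCL3 (chr4:74038690-74038819, reverse strand), CCL20 (chr2:227813712-227813841, forward strand), CXCL10 (chr4:76023498-76023627, reverse strand) and TNFAIP3 (chr6:137867129-137867258, forward strand), and capitals mark matches to the NF-kappa-B motif, GGGNN followed directly by TTNCC, on either strand.
CXCL1: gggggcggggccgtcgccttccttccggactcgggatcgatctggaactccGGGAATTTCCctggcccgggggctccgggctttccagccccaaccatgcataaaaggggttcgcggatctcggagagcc
CXCL2: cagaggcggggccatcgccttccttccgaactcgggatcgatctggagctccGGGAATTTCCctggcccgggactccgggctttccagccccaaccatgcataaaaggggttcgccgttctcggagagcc
CXCL3: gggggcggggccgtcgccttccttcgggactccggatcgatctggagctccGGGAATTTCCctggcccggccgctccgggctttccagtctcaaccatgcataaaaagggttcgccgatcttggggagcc
CCL20: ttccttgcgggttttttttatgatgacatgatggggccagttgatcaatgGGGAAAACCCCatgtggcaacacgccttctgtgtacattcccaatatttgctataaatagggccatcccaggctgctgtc
CXCL10: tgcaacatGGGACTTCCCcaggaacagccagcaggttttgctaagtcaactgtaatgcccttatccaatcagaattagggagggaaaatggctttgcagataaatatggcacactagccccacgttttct
TNFAIP3: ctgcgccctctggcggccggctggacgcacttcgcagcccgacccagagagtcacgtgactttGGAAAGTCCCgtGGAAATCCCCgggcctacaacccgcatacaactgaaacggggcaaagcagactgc
Within 250 bases of the start, the motif was in 7 of the 11 inflammatory genes that reversed (63.6%), in 2 of the 22 with a promoter that were raised and not lower in CKI (9.09%), and in 746 of all 12559 promoters (5.94%). It was in 10 of 23 cytokine promoters (43.5%) and in none of 29 immediate early promoters, so the groups differ in list as well as in response. Of the genes that reversed, CXCL8, IL1A, TNF and DUSP2 had no match in this window. A match is a string of letters and not a measured binding site.

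The immediate early genes mostly stayed in CKI near the level they had in VC. ATF3 was at 297, 384 and 358 CPM in CKI, a log2 fold change of -0.34 (standard error 0.09, edgeR adjusted p = 0.0018) from VC and 4.81 from untreated. FOSB was at 831, 986 and 903 CPM (log2 fold change 0.41 from VC and 4.86 from untreated). KLF6, a zinc finger factor induced by injury, was at 51.6, 47.7 and 56.4 CPM untreated, 537, 543 and 485 CPM in VC and 463, 566 and 541 CPM in CKI, with overlapping VC and CKI libraries and a log2 fold change of 0.00 (standard error 0.07, edgeR adjusted p = 0.97) whose sign depended on the processing. DUSP1, a phosphatase that inactivates p38 and JNK, went from 26.9, 21.8 and 28.8 CPM to 278, 325 and 323 CPM and 344, 408 and 401 CPM. Of the 19 immediate early genes raised in VC, 16 were not called in CKI against VC. EGR3 (log2 fold change -0.92) came nearest to reversing and was called with GC and length offsets and without VC replicate 3.

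Some members rose further. The nuclear receptor NR4A1, an immediate early gene itself, was at 13.9, 14.1 and 13.8 CPM untreated, 43, 48.9 and 55.1 CPM in VC and 119, 129 and 119 CPM in CKI, which is 1.81 (standard error 0.09, edgeR adjusted p = 1.8e-13) with the vehicle and another 1.32 (standard error 0.07, edgeR adjusted p = 2.6e-13) with CKI. KLF2 followed the same order at 1.67, 1.38 and 2.78 CPM, 3.3, 4.8 and 4.98 CPM and 15.9, 16.3 and 15.2 CPM (log2 fold change 1.85 with a standard error of 0.16, edgeR adjusted p = 4.1e-10 from VC). BTG2, an antiproliferative p53 target, was not called in VC against untreated (log2 fold change 0.55) and rose in CKI against VC (log2 fold change 1.21 with a standard error of 0.08, edgeR adjusted p = 3.7e-12), whereas GADD45B fell (log2 fold change -1.14 with a standard error of 0.08, edgeR adjusted p = 1.1e-11).

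Interleukin-1 beta and several growth factors of the cytokine list stayed close to the VC level. IL1B was at 153, 166 and 173 CPM untreated, 508, 457 and 453 CPM in VC and 372, 378 and 395 CPM in CKI, a log2 fold change of -0.31 (standard error 0.06, edgeR adjusted p = 8.7e-05) from VC and of 1.22 (standard error 0.06, edgeR adjusted p = 3.3e-14) from untreated. All 3 groups were separate, but the step down was small beside the step up of 1.53. CSF2, the granulocyte-macrophage factor, was at 5.13, 4.63 and 4.04 CPM, 23.9, 20.6 and 20.3 CPM and 15.5, 16 and 15.9 CPM (log2 fold change -0.45 from VC). LIF was at 231, 226 and 242 CPM in VC and 249, 290.2 and 268 CPM in CKI, and IL36G had -0.94, called without VC replicate 3. IL6 was low in every group, at 2.27, 1.6 and 1.45 CPM, 2.36, 2.81 and 2.77 CPM and 1.26, 1.54 and 1.11 CPM, and its log2 fold change of -1.02 (standard error 0.18, edgeR adjusted p = 2.4e-05) sat on the fold threshold. CXCL6 and CSF3 fell without having been raised in VC (log2 fold change -1.35 and -2.65). TSLP, an epithelial alarmin, was the only member of the list to rise, from 0.177, 0.409 and 0.553 CPM to 0.775, 1.04 and 0.9 CPM (log2 fold change 1.22 with a standard error of 0.46, edgeR adjusted p = 0.024). That call was lost without CKI replicate 2, VC replicate 1 or VC replicate 2. The list as a whole had 11 lower and 1 higher of 28, with a median of -0.50. CCL5, IKBKG and IKBKE were not analysed here.

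The prostaglandin genes showed no reversal. PTGS2, the inducible cyclooxygenase, was at 2.86, 2.59 and 2.15 CPM untreated, 10.1, 10.3 and 7.97 CPM in VC and 14.1, 13.7 and 13.6 CPM in CKI, which is 1.89 (standard error 0.13, edgeR adjusted p = 3.0e-10) with the vehicle and 0.55 from VC to CKI. PTGER4, a receptor for prostaglandin E2, was at 1.25, 2.1 and 2.97 CPM, 9.25, 10.5 and 8.69 CPM and 8.96, 9.13 and 7.94 CPM, and its VC and CKI libraries overlapped. Upstream and downstream of these, PLA2G4A, which frees arachidonic acid, rose (log2 fold change 1.61 with a standard error of 0.15, edgeR adjusted p = 1.3e-09), and HPGD, which inactivates prostaglandins, rose from 0.53, 0.204 and 0.111 CPM to 1.31, 1.59 and 1.48 CPM (log2 fold change 2.38). PTGES2, a prostaglandin E synthase, went from 91.5, 105 and 139 CPM to 54, 58.4 and 55 CPM, which sat on the fold threshold, and its call was lost with DESeq2 (log2 fold change -0.96), with several other settings and without VC replicate 3 (-0.82).

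In the NF-kappa-B list, 2 of 27 rose and 3 fell, a share near the 19.5% of all genes, with a median of -0.13. Beside TNFAIP3 and NFKBIZ, NFKBID fell (log2 fold change -1.62 with a standard error of 0.18, edgeR adjusted p = 4.6e-08). ICAM1, the adhesion receptor for leukocytes, rose from 24.6, 25.9 and 26 CPM to 51.3, 53.7 and 56.2 CPM (log2 fold change 1.07 with a standard error of 0.07, edgeR adjusted p = 2.0e-12), and the deubiquitinase CYLD rose by 1.07. The subunits themselves moved little, with NFKB1 at -0.79, RELA at 0.26 and RELB at 0.27.

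**Figure D4:**
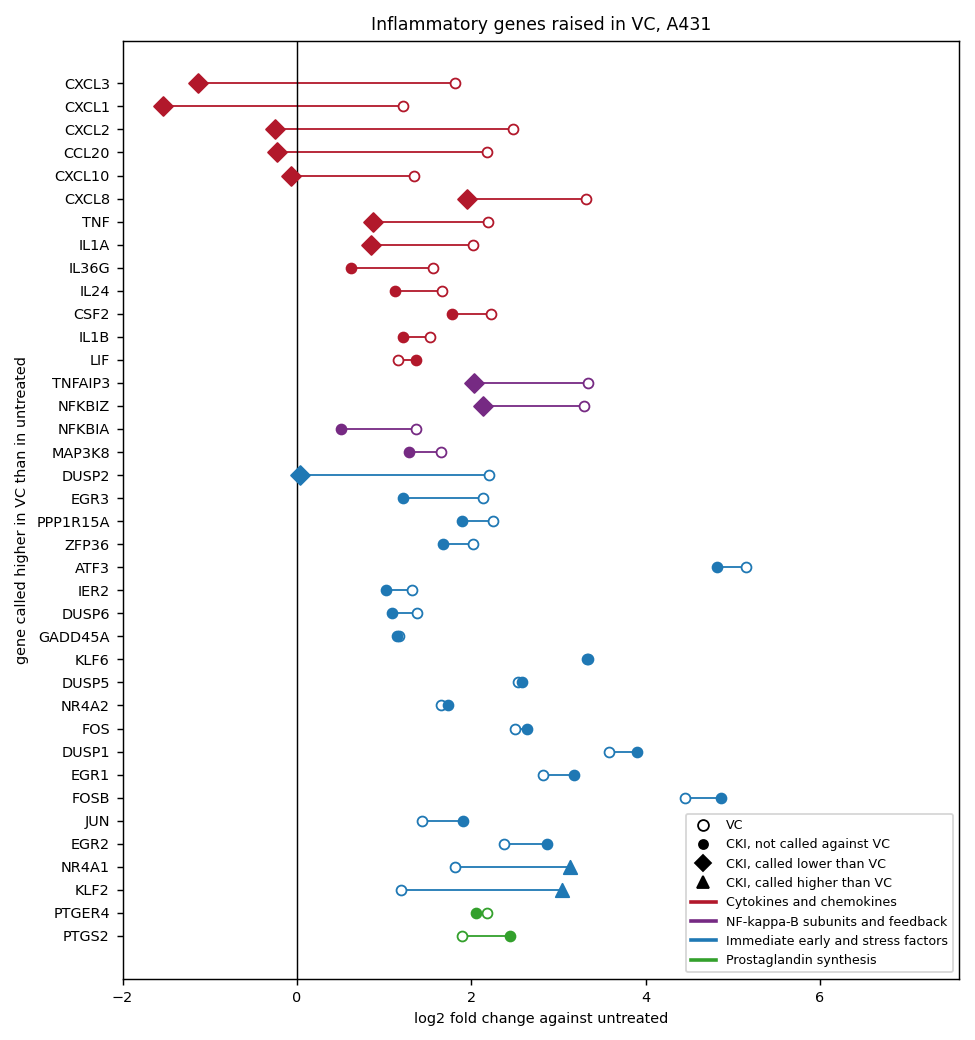
The 38 inflammatory genes raised in VC, 1 per row and coloured by list, with their log2 fold change against untreated cells in VC (open circle) and in CKI (filled symbol) joined by a line. Diamonds mark the 11 genes called lower in CKI than in VC and triangles the 2 called higher, and most immediate early genes have their symbols close together, as ATF3 at 5.16 in VC and 4.81 in CKI.

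Of 28 genes of epidermal differentiation tested, 9 fell and 3 rose, with a median of -0.31. Of all genes, 8.22% fell and 11.3% rose, so the 3 of 28 that rose are near that background. SPRR2A and SPRR2D, precursors of the cornified envelope, were raised with the vehicle and lower with CKI. SPRR2A was at 3.64, 4.85 and 4.86 CPM untreated, 22.6, 17.5 and 19.4 CPM in VC and 3.54, 5.31 and 5.29 CPM in CKI (log2 fold change 2.15, then -2.07 with a standard error of 0.15, edgeR adjusted p = 3.2e-11), and SPRR2D followed with 2.74 and -1.94. SPRR1B fell (log2 fold change -2.62 with a standard error of 0.15, edgeR adjusted p = 6.0e-13), and LY6D, a surface protein of squamous cells, fell from 474, 406 and 430.5 CPM in VC to 117, 122 and 131 CPM (log2 fold change -1.82 with a standard error of 0.06, edgeR adjusted p = 1.0e-16). The SPRR genes are close copies, so single values are uncertain. KRT13, a keratin of mucosal epithelium, rose instead, from 97.9, 103 and 117 CPM to 389, 404 and 393 CPM (log2 fold change 1.90 with a standard error of 0.06, edgeR adjusted p = 3.9e-17), as did the kallikreins KLK7 (log2 fold change 1.54) and KLK5 (log2 fold change 2.70), proteases of desquamation.

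Proteases of the matrix and their inhibitors had 5 of 16 higher and 1 lower, with a median of 0.51. Of all genes, 11.3% rose and 8.22% fell, so the 1 of 16 that fell is near that background. TIMP2, an inhibitor of metalloproteinases, was at 194, 191 and 181 CPM in VC and 612, 623 and 648 CPM in CKI (log2 fold change 1.74 with a standard error of 0.05, edgeR adjusted p = 1.1e-17). PLAU, urokinase, went from 354, 336 and 327 CPM to 909, 942 and 967 CPM (log2 fold change 1.47 with a standard error of 0.05, edgeR adjusted p = 1.3e-16), and the gelatinase MMP2 from 33.9, 35.2 and 39.1 CPM to 109, 116 and 112 CPM (log2 fold change 1.64 with a standard error of 0.06, edgeR adjusted p = 4.6e-16). In these 3 genes the CKI libraries lay above all others. The other gelatinase, MMP9, fell (log2 fold change -1.63 with a standard error of 0.27, edgeR adjusted p = 1.5e-05), and the collagenase MMP1 was low, at 0.825, 1.28 and 0.332 CPM in VC and 1.21, 1.44 and 1.06 CPM in CKI, with overlapping groups.

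In the glycolysis and hypoxia list 5 of 27 fell and 2 rose (median -0.31), where 8.22% of all genes fell and 11.3% rose. LDHA, which reduces pyruvate to lactate, fell from 2044, 1921 and 1812 CPM to 661, 669 and 697 CPM (log2 fold change -1.51 with a standard error of 0.06, edgeR adjusted p = 2.3e-16), and the upstream enzymes TPI1 (log2 fold change -1.16) and GPI (log2 fold change -1.07) fell with it, whereas the aldolase ALDOC rose (log2 fold change 1.38 with a standard error of 0.06, edgeR adjusted p = 1.2e-15). In the ATF4 list 5 of 18 fell and none rose (median -0.53), all of them enzymes of serine, one-carbon or asparagine metabolism. PHGDH, the first step of serine synthesis, went from 315, 326 and 367 CPM to 133, 146 and 137 CPM (log2 fold change -1.28 with a standard error of 0.07, edgeR adjusted p = 1.2e-13), and SHMT2 (log2 fold change -1.22), ASNS (log2 fold change -1.25), PSAT1 (log2 fold change -1.15) and MTHFD2 (log2 fold change -1.03) fell with it. PSAT1 was at -0.94 with GC and length offsets. Of 80 cytosolic ribosomal protein genes, 12 fell and 1 rose, and 79 had a negative log2 fold change, with a median of -0.80. This list was added after the data were seen and was not counted with offsets for GC content and length. Over all genes, transcript length was weakly related to CKI against VC (Spearman's rho 0.12), and its part in this list was not tested. In CKI_Dox against Dox none of the 80 was called and the median was 0.03.

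The counts of the remaining lists are to be read against the 11.3% of all genes that rose and the 8.22% that fell. The 2 of 18 unfolded protein response genes that rose are near that background. Of 22 interferon-stimulated genes 3 fell, namely IRF1 (log2 fold change -1.06 with a standard error of 0.05, edgeR adjusted p = 6.7e-14), OAS3 (log2 fold change -1.07) and IFITM1 (log2 fold change -1.26), and the median was -0.23. In the unfolded protein response 2 of 18 rose, DNAJB9 (log2 fold change 1.21 with a standard error of 0.10, edgeR adjusted p = 5.4e-10) and the kinase EIF2AK3 (log2 fold change 1.03 with a standard error of 0.08, edgeR adjusted p = 4.5e-11), with a median of 0.31. Of 14 EGFR ligands, receptors and feedback genes none was called. EGFR itself was at 2308, 2459.5 and 2285 CPM in VC and 3271, 3393 and 3379 CPM in CKI, a log2 fold change of 0.51 (standard error 0.05, edgeR adjusted p = 2.5e-09) without overlap. In the BCL2 family 2 of 16 fell, and the larger change was in BCL2A1, a survival factor that NF-kappa-B induces, from 13, 11.5 and 9.96 CPM to 0.92, 1.34 and 1.54 CPM (log2 fold change -3.18 with a standard error of 0.16, edgeR adjusted p = 4.7e-14). BCL2L1, which encodes BCL-XL, was at 0.97, just short of the threshold. Of 10 ID and BMP genes, ID4 (log2 fold change 3.20) and BMP4 (log2 fold change 2.37) rose and BMP7 fell (log2 fold change -1.34 with a standard error of 0.11, edgeR adjusted p = 1.3e-10), and ID1, lowered with the vehicle from 498, 508 and 490.1 CPM to 240.4, 244 and 251 CPM, was at 340.3, 382 and 359 CPM in CKI.

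Among called genes with at least 10 CPM in the higher group and no overlap, several of the largest increases outside the lists were in genes almost silent in VC. Genes at lower levels had larger fitted changes, from -7.79 to 7.69 over all genes tested. QPRT, an enzyme of NAD synthesis from tryptophan, went from 0, 0 and 0.387 CPM to 10.6, 12 and 9.16 CPM (log2 fold change 6.30 with a standard error of 0.34, edgeR adjusted p = 1.3e-13), and another row of the table with the same Ensembl ID holds the same counts. The secreted phospholipase PLA2G2F went from 0.53, 0.357 and 0.277 CPM to 16.6, 15.5 and 17.2 CPM (log2 fold change 5.39 with a standard error of 0.19, edgeR adjusted p = 1.2e-16) and SCIN, an actin-severing protein, from 0.53, 0.46 and 0.443 CPM to 15.3, 16.8 and 17.7 CPM (log2 fold change 5.10 with a standard error of 0.18, edgeR adjusted p = 9.7e-17). These 3 were below 1 CPM in all untreated and VC libraries. KRT34, a hair keratin, rose by 4.56 and the non-coding LINC03040 by 4.61. The alkaline phosphatases ALPP and ALPG, near-identical copies, were lowered with the vehicle (log2 fold change -1.24 and -1.31) and rose with CKI (log2 fold change 4.37 and 4.38). Downward, FST, follistatin, an activin antagonist, went from 227, 212 and 203 CPM to 22.7, 25 and 24.4 CPM (log2 fold change -3.16 with a standard error of 0.07, edgeR adjusted p = 3.9e-20) and the MYC and E2F target CDCA7 from 91.7, 87.8 and 82.6 CPM to 10.4, 10.5 and 8.89 CPM (log2 fold change -3.13 with a standard error of 0.08, edgeR adjusted p = 1.0e-18). ESCO2, which acetylates cohesin (log2 fold change -2.76), and the condensin subunit NCAPG (log2 fold change -2.76) were also among the 10 largest falls within the same limits.

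Set against untreated cells in place of VC, CKI had 1901 genes higher (12%) and 1653 lower (10.4%). The lists fall into 3 kinds by their medians in VC against untreated, CKI against VC and CKI against untreated. Replication was at 0.01, -1.98 and -1.98, mitosis at 0.16, -1.98 and -1.85, and the NRF2 list at -0.10, 1.15 and 1.18, so for these the choice of control made little difference. Cytokines were at 1.01, -0.50 and 0.25. Immediate early genes were at 1.26, 0.08 and 1.31, and the sterol list at 0.43, 1.11 and 1.58. Of 36 immediate early genes, 25 were higher in CKI than in untreated cells and 5 were higher in CKI than in VC. In CKI_Dox against Dox, 3 of the 36 were higher and 5 lower (median -0.04). In MDA-MB-231 cells, CKI against untreated had 1 higher and 1 lower (median -0.05).

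The doxorubicin arms give values for CKI in A431 libraries that the comparison with VC does not use. In CKI_Dox against Dox, 1094 of 15881 genes were higher (6.89%) and 1275 lower (8.03%). Of the 1795 genes that rose in CKI against VC, 355 were higher there too (19.8% of these, and 32.4% of the 1094) and 192 were lower (10.7%). Of the 1305 that fell, 336 were lower (25.7% of these, and 26.4% of the 1275) and 45 were higher (3.45%). Replication genes had 31 of 43 lower and mitosis genes 32 of 39, with medians of -1.39 and -1.23. NRF2 targets had 10 of 21 higher (median 0.94) and sterol genes 18 of 27 (median 1.61). Other lists differed from their values in CKI against VC. Cholesterol efflux genes had 1 of 9 higher with a median of -0.10, beside 0.95 in CKI against VC, and fatty acid genes had 4 of 11 higher with a median of 0.30, beside 1.05. CYP1A1 went from 3.72, 3.83 and 3.92 CPM in Dox to 115, 118 and 122 CPM in CKI_Dox (log2 fold change 4.95 with a standard error of 0.09, edgeR adjusted p = 6.1e-21), and MCM3 from 440.1, 431.2 and 432 CPM to 128, 128 and 123 CPM (log2 fold change -1.78 with a standard error of 0.05, edgeR adjusted p = 5.6e-18).

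The cytokine and epidermal lists did not follow the direction of CKI against VC beside doxorubicin. Of 28 cytokines, 14 were higher and 1 lower in CKI_Dox against Dox, with a median of 0.98. CKI against VC had 1 higher and 11 lower. CKI against untreated in A431, which also has no vehicle group, had 6 higher and 4 lower (median 0.25), with CXCL8 among the higher. Of 28 epidermal genes, 10 were higher and 2 lower in CKI_Dox against Dox (median 0.60). CXCL8 was at 56.3, 66.6 and 56.9 CPM in Dox and 125, 123 and 119.8 CPM in CKI_Dox (log2 fold change 1.03 with a standard error of 0.09, edgeR adjusted p = 1.4e-09), and CCL20 at 1.55, 1.18 and 1.44 CPM and 4.12, 4.78 and 3.67 CPM (log2 fold change 1.59 with a standard error of 0.20, edgeR adjusted p = 3.8e-07). CXCL1 was not called, at 83.6, 88.2 and 84 CPM and 89.4, 93.7 and 88.7 CPM (log2 fold change 0.09). BCL2A1 went from 2.27, 2.55 and 2.18 CPM to 19.7, 19.9 and 20.5 CPM (log2 fold change 3.09 with a standard error of 0.13, edgeR adjusted p = 5.1e-15) and SPRR1B rose by 2.15, both against the direction in CKI against VC. The difference between the comparisons was not tested, and here the control was cells with doxorubicin, with no vehicle group of that arm among the libraries.

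In MDA-MB-231 cells, CKI could be set only against untreated cells, since the labels give no vehicle group for that line. There 526 of 13999 genes were higher (3.76%) and 309 lower (2.21%). Of the genes that rose in CKI against VC in A431 and were tested in MDA-MB-231, 188 of 1228 were higher (15.3%, and 35.7% of the 526), and of those that fell, 61 of 1168 were lower (5.22%, and 19.7% of the 309). CYP1A1 went from 1.26 ± 0.479 CPM (SD, n = 3) to 97.1 ± 2.77 CPM (SD, n = 3) (log2 fold change 6.28 with a standard error of 0.15, edgeR adjusted p = 1.5e-10), with 5 of 9 AHR targets higher. NRF2 targets had 11 of 21 higher (median 1.03), AKR1B10 among them (log2 fold change 4.13 with a standard error of 0.34, edgeR adjusted p = 3.5e-06), and sterol genes 13 of 27 higher and 1 lower (median 0.80). Replication genes had 1 of 43 lower with a median of -0.33 and mitosis genes none of 39 with a median of -0.09, and MCM3 was at -0.80 (standard error 0.05, edgeR adjusted p = 6.5e-07). ABCG1 and ABCA1 fell in this line (log2 fold change -3.71 with a standard error of 0.31, edgeR adjusted p = 3.9e-06 and -3.20 with a standard error of 0.12, edgeR adjusted p = 4.7e-09). The total of 835 called genes became 926 without untreated replicate 1. Whether the lines differ was not tested.

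**Figure D5:**
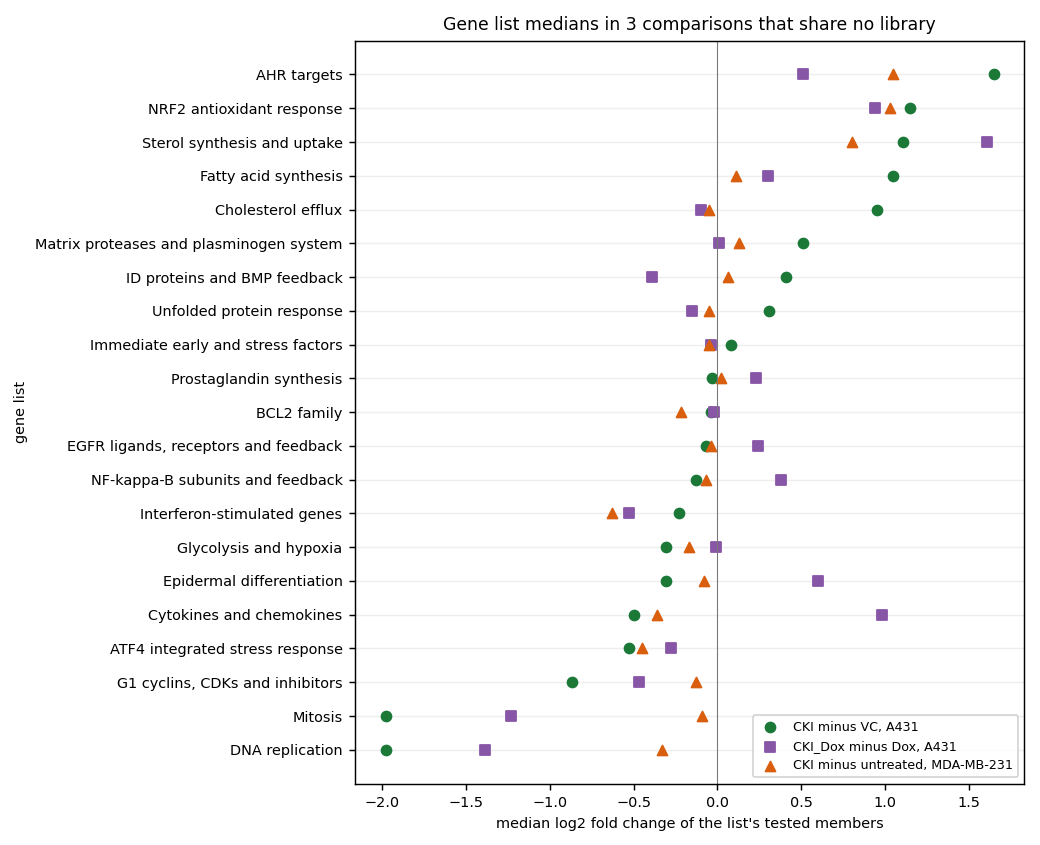
Median log2 fold change of the tested members of each gene list (rows) in CKI against VC in A431, in CKI_Dox against Dox in A431 and in CKI against untreated MDA-MB-231, which share no library, with 1 marker per comparison. NRF2 targets lie together (1.15, 0.94 and 1.03), replication genes are at -1.98, -1.39 and -0.33, and cytokines are at -0.50, 0.98 and -0.36.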

How the data were processed

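RNA-seq counts of 27 libraries were deposited by the authors as 1 table of raw read counts per gene, without normalization. The submitters' processing notes name Trim Galore 0.3.7, STAR 2.5.3a, edgeR and hg19, and the labels describe unstranded paired-end libraries of total RNA. The counting tool and annotation are not given in the sources used here, so overlapping, antisense and near-identical genes are uncertain. Of 24566 Entrez IDs in the table, 24422 had a RefSeq symbol. There were 194 Ensembl IDs listed under several Entrez IDs, in 416 rows. Such rows can hold the same counts, as for QPRT, so numbers of genes tested or called may include repeats. The row that repeats QPRT took 1 of the 10 places among the largest increases. All 27 columns were matched to a sample by name.

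Counts of the 15 A431 libraries were fitted together with edgeR 4.0.16 in R 4.3.3 (TMM factors, filterByExpr, glmQLFit and glmQLFTest), and the 12 MDA-MB-231 libraries separately. A gene was called where its log2 fold change exceeded 1 in either direction and its p-value, adjusted by Benjamini-Hochberg over all genes tested, was below 0.05. The fits were tested on simulated data. The same factors gave the CPM values. The comparisons, gene lists and named genes were chosen with earlier results of these data known. Named genes were the 10 largest called changes in each direction with at least 10 CPM in the higher group and no overlap, up to 4 members per list of smallest adjusted p-value in CKI against VC (in the 4 inflammatory lists also in VC against untreated), and 21 genes listed by name. Other list members are named as examples beside a count, and these were chosen after their values were seen, as was the list of ribosomal protein genes, taken by symbol. A change was taken to reverse where a gene was called in VC against untreated and called in the opposite direction in CKI against VC.

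Promoters came from a RefSeq table of GRCh38.p14, and 7 motifs were searched in the bases before the start. The sterol element, TCACNCCAC, was in 1 of 21 sterol promoters (4.76%) and in 0.828% of all. The antioxidant element, TGANNNNGC, was in 9 of 16 NRF2 promoters (56.2%), 11 of 21 sterol promoters (52.4%) and 36% of all. Gene positions on GRCh37, lengths and GC content came from GENCODE and covered 99.5% of rows. Alternatives were DESeq2 1.42.0, RLE factors, no filter, at least 10 counts in every library, the compared groups alone, the adjusted p-value alone, offsets for GC content and length (lowess with a span of 0.3), a replicate block, and the omission of each replicate in turn. The same alternatives for the count of reversed inflammatory genes and for list counts in CKI against VC were added after the data were seen. The floors cover counting error only, while the standard errors come from the quasi-likelihood test and include the spread between replicates. The libraries with 5-FU were part of the MDA-MB-231 fit but of no comparison.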

Additional observations from a re-analysis of the deposited data

How the results depend on the processing

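No named gene that was called changed direction under any alternative run, and the sign changed for 1 gene that was not called. The log2 fold change of KLF6 in CKI against VC was 0.00 and became -0.01 with no filter and -0.06 to 0.08 when 1 replicate was left out. The counts of called genes moved by over 1.5 times under a few settings. With the adjusted p alone they were 10319 in CKI against VC, 6748 in VC against untreated, 10648 in CKI against untreated, 10102 in CKI_Dox against Dox and 5066 in MDA-MB-231, and 31 inflammatory genes reversed, since the fold threshold was dropped. With at least 10 counts in every library, which leaves fewer genes, they were 1989, 174, 1431 and 504 in CKI against VC, VC against untreated, CKI_Dox against Dox and MDA-MB-231. VC against untreated also moved, with 243 genes under offsets for GC content and length and 263 with the compared groups alone, against 404. Its higher share of called genes was 41.1% and became 62.1% (151 higher, 92 lower) with the offsets, 59.2% with at least 10 counts and 52% without untreated replicate 1. The cause was not tested. Leaving out 1 replicate gave 3015 to 3221 genes in CKI against VC, 324 to 561 in VC against untreated (the highest without VC replicate 3), 3457 to 3605 in CKI against untreated, 2363 to 2497 in CKI_Dox against Dox, 801 to 926 in MDA-MB-231 and 11 to 14 reversed genes. The value of 14 came without VC replicate 3 and added IL36G, BIRC3 and EGR3. With the replicate block, 3070 genes were called in CKI against VC (98.6% of the 3100 kept). Same-numbered CKI and VC libraries deviated together with r of 0.07, 0.02 and -0.02 across genes, so the numbers were not taken as pairs. The same 11 genes reversed under the remaining settings, except that IL1A was lost and EGR3 gained with the offsets and TNF was lost with at least 10 counts in every library. Of the values of named genes under the alternatives, 22 lost a call and 36 gained one, the latter mostly with the adjusted p alone. The losses were in IL6, PTGES2, ABCG2, IL1A, PSAT1 and SPARC, and IL6 was -0.70 with the offsets, IL1A -0.89 and PSAT1 -0.94. Genes at a few counts per library, such as TNF in the untreated and CKI libraries, are limited by depth.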
